A study of Homo sapiens with 15 samples.

Results

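The genes of the respiratory chain and of ATP synthase were examined on 15 dual-color oligonucleotide arrays of A549 cells, a human lung adenocarcinoma cell line. Probes were taken where the gene name in the files began with NDUFA, NDUFB, NDUFC, NDUFS, NDUFV, UQCR, ATP5, SDHA, SDHB, SDHC, SDHD or COX followed by a digit from 4 to 8, together with every probe whose position was on the mitochondrial genome. This gave 148 of the 41000 probes of the array, 128 of them for 88 nuclear gene names and 20 for the mitochondrial genome. On each array, A549 cells transfected with a precursor oligonucleotide of a miRNA (overexpressing, Cy5) were set against A549 cells transfected with an LNA antisense oligonucleotide, or antagomir, to the same miRNA (knocked-down, Cy3). There were 3 arrays for each of 5 miRNAs, which were miR-629*, miR-574-3p, miR-181d, miR-766 and miR-565, at 20 nM of oligonucleotide and with RNA taken 24 h after transfection. No array held untransfected cells or a control oligonucleotide, and the labels do not say whether the replicates were separate transfections, so that p-values measure the spread between these arrays only. The study concerned miRNAs in the response of cells to X-rays, and the array comparison asked which mRNAs differ with the level of a miRNA.

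The respiratory chain passes electrons from NADH and succinate to oxygen through complexes I to IV of the inner mitochondrial membrane, and the proton gradient that it builds drives ATP synthase, also called complex V. Its subunits come from both genomes. The mitochondrial DNA encodes a small set of core subunits of complexes I, III, IV and V and both mitochondrial rRNAs, and is transcribed from both strands as long precursors that are cut into separate RNAs. The forward strand, as used here, carries the rRNAs and most mRNAs, and the reverse strand carries ND6. All of complex II and the remaining subunits are transcribed in the nucleus, where the factors NRF1, the ETS protein GABP and YY1 are known to act on many of their promoters.

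Among the 5 miRNAs, mitochondrial probes were called most often for miR-574-3p, whose mature sequence is shown from RefSeq (GRCh38.p14, chr4:38868092-38868113, forward strand), with the seed, bases 2 to 8, in capitals.
hsa-miR-574-3p: cACGCUCAugcacacacccaca

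Of the 20 mitochondrial probes, 16 read the forward strand and 4 the reverse strand of the array design (NCBI36). The probes on which the results turn are shown as in the files, and the genes named for them by region follow the usual gene order of the mitochondrial genome. The capitals mark the 33 bases that a pair of probes for opposite strands share as reverse complements, in the region of the ATP6 gene.
AY029066, first probe (chrM:2403-2462, forward, 16S rRNA region): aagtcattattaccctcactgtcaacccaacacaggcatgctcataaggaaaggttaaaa
ND2 (chrM:4914-4973, forward): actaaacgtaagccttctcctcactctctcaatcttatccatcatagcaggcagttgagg
Probe with no gene name (chrM:8831-8896, forward): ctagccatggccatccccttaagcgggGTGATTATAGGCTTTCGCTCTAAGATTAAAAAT
AF271776 (chrM:8843-8902, reverse): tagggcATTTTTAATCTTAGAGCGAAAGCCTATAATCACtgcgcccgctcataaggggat
AK097322, first probe (chrM:10861-10919, forward, ND4 region): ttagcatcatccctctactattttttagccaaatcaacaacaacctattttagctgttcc
THC2595309 (chrM:11342-11402, forward, ND4 region): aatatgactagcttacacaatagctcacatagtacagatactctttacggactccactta
AK097322, second probe (chrM:11432-11491, forward, ND4 region): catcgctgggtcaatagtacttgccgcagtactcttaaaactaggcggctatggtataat
A probe named COX1 was not a member, since the files place it on chromosome 1. Matches of the probes to copies of mitochondrial DNA in the nuclear genome were not tested.

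All values are log2 ratios of the processed signal, overexpressing over knocked-down, so that a positive value means more signal in the overexpressing cells. A difference from the other miRNAs is the mean of one miRNA minus the mean of the 4 others, which removes any dye effect shared by the arrays. A probe is called where its limma adjusted p (Benjamini-Hochberg over the 31352 probes tested) was under 0.05. Of the members, 125 nuclear probes of 86 gene names and 18 mitochondrial probes were bright enough to be tested. The dim ones were the probes of COX7B2 and COX7A1, 1 of COX6A1, BC007940 and 1 of AF271776. Among the nuclear members, 14 probes of 9 gene names are not subunits in the strict sense (assembly factors such as NDUFAF1 and NDUFA12L, pseudogene-like SDHA copies and others). The cells expressed epithelial keratins and the detoxifying enzymes known from A549 (KRT8, KRT18, KRT19, AKR1B10, ALDH1A1 and NQO1, with at least 1 probe above background on all 15 arrays), whereas the probes of PTPRC, PECAM1 and COL3A1, markers of leukocytes, endothelium and fibroblasts, were above background on 0 arrays. Of the other lineage markers, CD3E of T cells was above background on all 15 arrays at 1 of its probes, at median signals of 39.1 (knocked-down) and 34.5 (overexpressing), and on 1 array at the other. VWF of endothelium was so on 9 arrays at 1 probe and on 1 at the other. SFTPC of alveolar type II cells was above background on all 15 arrays at both probes. Its median signals were 51.4 and 76.7 (knocked-down) and 49.2 and 79.1 (overexpressing). Their part in the results was not tested. Replicate 1 of miR-565 stood apart, with an SD of the log2 ratios over all tested probes of 0.942, against 0.290 to 0.532 on the other 14 arrays.

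The nuclear and the mitochondrial groups parted on the miR-574-3p arrays. The median of the 125 nuclear probes stayed between -0.04 and 0.03 on these 3 arrays, while that of the 18 mitochondrial probes was 0.67, 0.46 and 0.77. The mitochondrial median exceeded the nuclear one by 0.64 ± 0.19 (SD, n = 3). The same gap was 0.25 ± 0.13 for miR-766, 0.13 ± 0.11 for miR-629* and -0.05 ± 0.02 for miR-181d. The 3 values of miR-574-3p (0.66, 0.43 and 0.82) lay above the 3 values of each of these, of which the highest was 0.37 on replicate 3 of miR-766. For miR-565 the mean of -0.52 ± 0.85 came from replicate 1 alone, with -1.50, against -0.02 and -0.05 on replicates 2 and 3. No test was applied to these medians, because the members were chosen as a list.

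**Figure D1:**
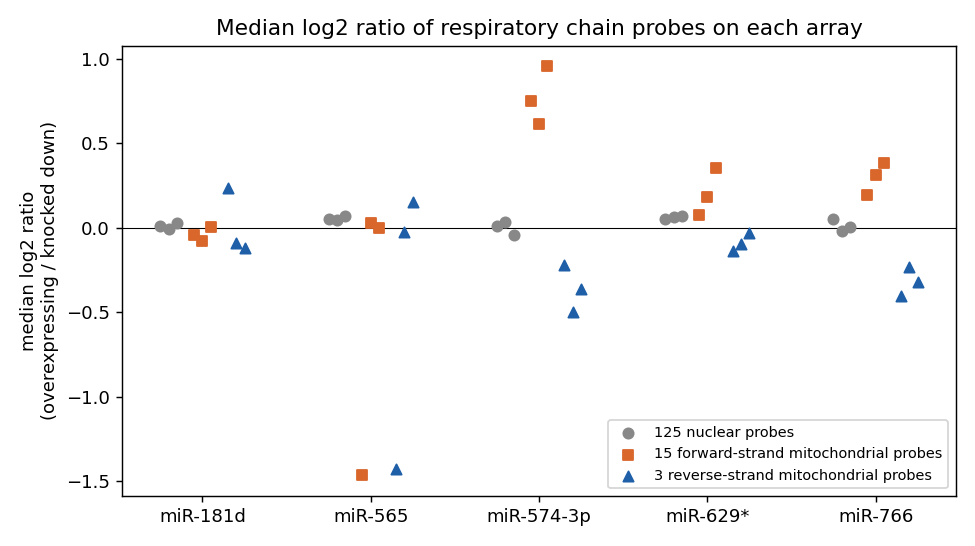
Median log2 ratio (overexpressing over knocked-down, vertical axis) on each of the 15 arrays, by miRNA, for nuclear probes (circles), forward-strand mitochondrial probes (squares) and reverse-strand mitochondrial probes (triangles), each point being 1 array. Nuclear medians lie near 0 throughout, while on the 3 miR-574-3p arrays the forward-strand medians are 0.75, 0.61 and 0.96 and the reverse-strand medians -0.22, -0.50 and -0.36, and replicate 1 of miR-565 has mitochondrial medians of -1.47 and -1.43.

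Forward-strand and reverse-strand mitochondrial probes had ratios of opposite sign on the miR-574-3p arrays. Of the 15 forward-strand probes tested, 13 had a higher signal in the overexpressing cells on all 3 arrays, with a median of the mean ratios of 0.79. All 3 reverse-strand probes tested had a lower one on all 3 arrays, with a median of -0.30. They were ND6, AF271776 and a probe at chrM:3007-3066 that carries the name of a nuclear gene, TMEFF2. Forward and reverse medians were also of opposite sign for miR-766 (0.30 and -0.32) and miR-629* (0.20 and -0.09). Set against the other miRNAs, the reverse-strand probes of miR-574-3p had a median difference of -0.09. Of all 31352 tested probes, 9342 were higher and 8940 lower on all 3 of these arrays. The forward median exceeded the reverse median by 1.14 ± 0.17 (SD, n = 3), compared with 0.62 ± 0.08 for miR-766, 0.29 ± 0.09 for miR-629*, -0.05 ± 0.21 for miR-181d and -0.05 ± 0.10 for miR-565. The split by strand was made after the values were seen and is given as a description. The pair of probes whose shared 33 bases are printed above showed it at 1 place of the genome, with 0.88, 0.68 and 0.96 for the forward probe and -0.22, -0.50 and -0.18 for the reverse probe. ND6, the only mRNA encoded on the reverse strand, had a negative mean ratio with all 5 miRNAs (-0.61 for miR-181d, -0.66 for miR-565, -0.53 for miR-574-3p, -0.56 for miR-629* and -0.50 for miR-766), and none of these passed the test.

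**Figure D2:**
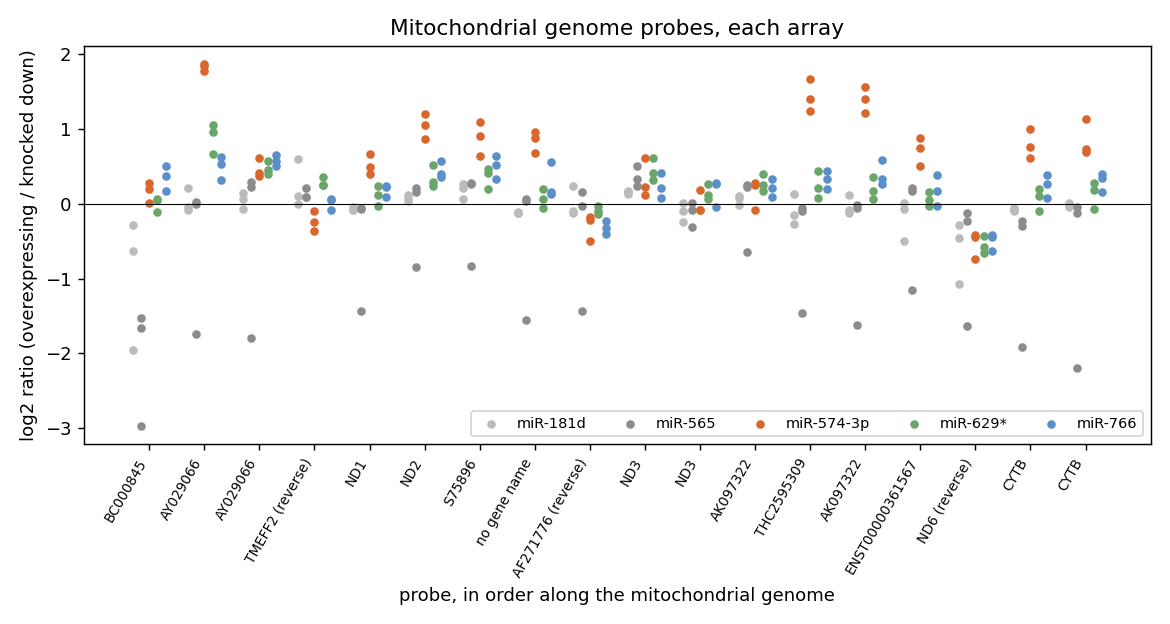
Log2 ratio (overexpressing over knocked-down, vertical axis) of the 18 tested mitochondrial probes in order along the mitochondrial genome (horizontal axis), 1 point for each array, colored by miRNA. The miR-574-3p arrays (orange) stand above the others at the first AY029066 probe, ND2, THC2595309 and the second AK097322 probe, and lie among them at both ND3 probes and the first AK097322 probe.

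In the test of each probe, 6 of the 18 mitochondrial probes were higher for miR-574-3p, against 2.76% of all tested probes, and 0 were lower, against 2.56%, while 13 had an unadjusted p under 0.05, as did 6017 of the 31352 probes tested. The 6 are probes of the 16S rRNA and of the mRNAs of complex I subunits, plus the unnamed probe of the ATP6 region, a subunit of complex V. The first AY029066 probe, in the gene of the 16S rRNA of the large mitochondrial ribosomal subunit, had 1.84, 1.78 and 1.87 (mean 1.83, SE 0.24, limma adjusted p = 0.000808). A rise of AY029066 on these arrays was known when the members were chosen, so its values and calls are given as a description. THC2595309, in ND4, the core complex I subunit, had 1.40, 1.24 and 1.66 (mean 1.43, SE 0.20, limma adjusted p = 0.00146). The second AK097322 probe, also in ND4, had 1.41, 1.21 and 1.56 (mean 1.39, limma adjusted p = 0.00288). ND2, another membrane subunit of complex I, had 1.05, 0.86 and 1.20 (mean 1.04, limma adjusted p = 0.00162). At each of these 4 probes the 3 values lay above those of all 12 other arrays, of which the highest was 1.05, at the first AY029066 probe on replicate 3 of miR-629*. The share of all tested probes for which this holds was not counted. S75896 followed with a mean of 0.88 (limma adjusted p = 0.00842) and the unnamed probe with 0.84 (limma adjusted p = 0.0452).

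Other mRNAs of the forward strand had positive mean ratios that did not pass the test. Both probes of CYTB, the cytochrome b of complex III, had 0.79 and 0.85 (limma adjusted p = 0.061 and 0.108), ENST00000361567, the ND5 transcript, had 0.71 (limma adjusted p = 0.056), and ND1 had 0.52 (limma adjusted p = 0.134). Each of these 4 probes was positive on all 3 miR-574-3p arrays. Without replicate 1 of miR-565, 12 mitochondrial probes were called higher and 2 lower for miR-574-3p, against 11.4% and 10.8% of all probes in that fit, the lower ones being ND6 and AF271776 of the reverse strand, and these 4 were among those higher, with limma adjusted p of 9.4e-06 and 1.25e-05 (CYTB), 0.000202 (ENST00000361567) and 2.66e-05 (ND1). With the slide as a random block, 1 mitochondrial probe remained called, the first AY029066 probe (1.40, limma adjusted p = 0.0364). The rise of AY029066 was known when the members were chosen, so this call is also given as a description.

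Probes of the same transcript did not always move together. The first AK097322 probe, upstream of THC2595309 in ND4, had 0.28, -0.08 and 0.25 on the miR-574-3p arrays (mean 0.15, limma adjusted p = 0.627), against 1.39 for the second. In the 16S rRNA region, BC000845 had a mean of 0.16 (limma adjusted p = 0.827), against 1.83 for the first AY029066 probe. The probes of ND3, a small complex I subunit, had mean ratios of 0.32 and 0.01.

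Set against the other miRNAs, 4 mitochondrial probes were called higher for miR-574-3p, where 0.475% of all tested probes were. They include the first AY029066 probe, and the rise of AY029066 was known when the members were chosen. The difference was 1.62 for the first AY029066 probe (SE 0.27, limma adjusted p = 0.0084), 1.45 for THC2595309 (SE 0.23, limma adjusted p = 0.0063), 1.39 for the second AK097322 probe (SE 0.25, limma adjusted p = 0.0128) and 0.86 for ND2 (SE 0.17, limma adjusted p = 0.0235). Without replicate 1 of miR-565, 10 were called higher, against 2.69% of all probes, and these 4 had 1.47, 1.34, 1.26 and 0.77. Without any 1 of the miR-574-3p arrays, the first AY029066 probe (limma adjusted p from 0.0708 to 0.0727), the second AK097322 probe (from 0.0713 to 0.113) and ND2 (from 0.0900 to 0.177) were no longer called, and THC2595309 was called only without replicate 2 (limma adjusted p = 0.0363, against 0.0502 without replicate 1 and 0.0718 without replicate 3). With the slide as a random block, ND2 also lost its call (0.55, limma adjusted p = 0.0856). Within slide 2, which held replicates 1 and 2 of miR-574-3p and replicates 2 and 3 of miR-565, THC2595309 was higher by 1.40, the second AK097322 probe by 1.34, ND2 by 0.77 and the first AY029066 probe by 1.80. Within slide 3, where replicate 3 of miR-574-3p shared the slide with the 3 arrays of miR-629*, the same probes were higher by 1.42, 1.36, 0.85 and 0.98. The first AY029066 probe was itself called higher for miR-629* (0.66, 0.96 and 1.05, limma adjusted p = 0.0328), against 5.99% of all probes.

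The signals of miR-574-3p lay apart in the knocked-down channel. In the cells treated with the miR-574-3p antagomir, the first AY029066 probe had processed signals of 24840, 29780 and 28270, all under the 36630 to 203100 of the antagomirs to the other miRNAs. In the overexpressing cells of the same arrays it had 88890, 102200 and 103200, of which the first lay within and the others just above the 60960 to 100700 of the other overexpressing samples. The second AK097322 probe showed the same in ND4, with knocked-down signals of 1644, 1584 and 1768 against 3494 to 7238 elsewhere. Its overexpressing signals of 4360, 3657 and 5193 lay within the 2362 to 5759 of the other arrays. For THC2595309 the knocked-down signals were 150.7, 153.2 and 154.8 against 298.5 to 702.6, and for ND2 they were 848.0, 889.1 and 861.5 against 1135 to 2239. At these 4 probes the knocked-down signals of miR-574-3p did not overlap those of the other 12 arrays. The 4 were taken because their ratios differed from those of the other miRNAs. How many of all tested probes show such a gap was not counted.

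The signals of each dye were then tested against those of that dye for the 4 other miRNAs. These channel fits, here and below, took the arrays as independent and were not run with a slide block. The ratios had a correlation of 0.73 within slides, so the channel p-values leave out this dependence. In the knocked-down channel of miR-574-3p, 11 of the 18 mitochondrial probes were lower, against 4.5% of all tested probes, all 11 of them on the forward strand, and 1 was higher, against 4.05%. Among the 11 is the first AY029066 probe, and the rise of AY029066 in the ratio was known when the members were chosen. The median difference of the 15 forward probes was -0.90, compared with 0.01 for all tested probes. THC2595309 fell by 1.65 on the log2 scale (limma adjusted p = 7.72e-10), the second AK097322 probe by 1.55 (limma adjusted p = 4.01e-11) and the first AY029066 probe by 1.43 (limma adjusted p = 1.24e-07). CYTB fell by 1.05 and 0.94 at its 2 probes, ENST00000361567 by 0.90, ND2 by 0.90 and ND1 by 0.72 (limma adjusted p from 1.25e-09 to 1.13e-08). The probe higher in this channel was AF271776, on the reverse strand, with 0.28 (limma adjusted p = 0.00477).

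In the overexpressing channel of miR-574-3p, no probe was called in either direction (0% higher and 0% lower of all 31352 probes), and 0 mitochondrial and 0 nuclear members had an unadjusted p under 0.05, where 1134 of all probes had. The median difference of the 15 forward probes was -0.05. Replicate 1 of miR-565 adds to the spread in this channel. When it was dropped, a choice made once the values were known, 7 probes of the array were called higher (0.0223%) and 3 lower (0.00957%), none of them a member. In that fit the 15 forward probes ran from -0.35 (S75896) to 0.23 (BC000845), most of them negative and none called. THC2595309 had -0.30 and the first AY029066 probe 0.08 (limma adjusted p = 0.802 for both). In the knocked-down channel the same fit gave -1.63 and -1.38. In RNA from a whole culture, less transcript in each cell and fewer cells holding it cannot be told apart.

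**Figure D3:**
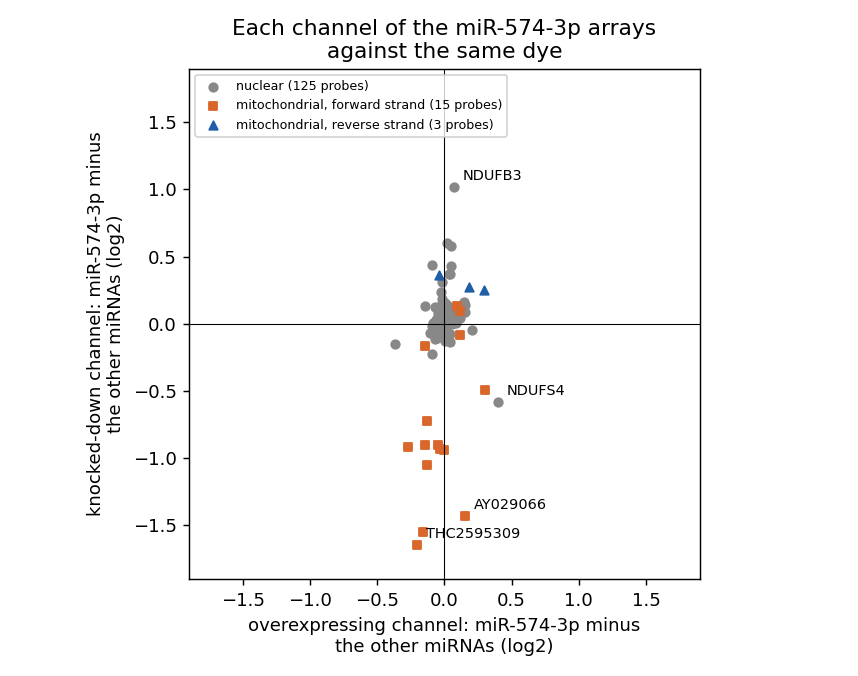
Difference of the miR-574-3p arrays from those of the other miRNAs (log2), in the overexpressing channel (horizontal axis) and the knocked-down channel (vertical axis), 1 point for each of the 143 tested members. Forward-strand mitochondrial probes (squares) reach down to -1.65 and NDUFB3 up to 1.02 on the vertical axis, while all points lie between -0.37 (COX4I2) and 0.40 (a dim NDUFS4 probe) on the horizontal axis.

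Nuclear members had medians near 0, and their lowest called ratios for miR-574-3p were those of NDUFB3, NDUFA1 and COX6B1. For this miRNA 4 of the 125 nuclear probes were called higher and 10 lower, against 2.76% and 2.56% of all tested probes. NDUFB3, an accessory subunit of complex I in the membrane arm, had -0.88, -0.96 and -1.11 (mean -0.98, SE 0.11, limma adjusted p = 0.00021). NDUFA1, another small membrane-arm subunit, had -0.49, -0.50 and -0.57 at its first probe (mean -0.52, SE 0.06, limma adjusted p = 0.000277) and -0.47, -0.44 and -0.52 at its second (mean -0.48, limma adjusted p = 0.000644), with overlapping targets on the X chromosome. COX6B1, a subunit of complex IV on the side of the intermembrane space, had -0.30, -0.35 and -0.39 (mean -0.34, SE 0.05, limma adjusted p = 0.00226). ATP5O of complex V lay lower, with -0.45, -0.53 and -0.49, but was not called (mean -0.49, SE 0.13, limma adjusted p = 0.0511). Among the other, smaller falls were -0.22 for UQCR (now UQCR11, complex III), -0.20 each for COX8A, COX4I1 (1 of 3 probes) and ATP5G1, and -0.17 for NDUFB8. The 4 rises were both NDUFV3 probes (0.26 and 0.23), COX7B (0.23) and ATP5J2 (0.22).

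Against the other miRNAs, 6 nuclear probes were called lower for miR-574-3p, where 0.705% of all tested probes were, and 0 higher. NDUFB3 differed by -0.93 (SE 0.12, limma adjusted p = 0.00136), the NDUFA1 probes by -0.58 and -0.51 (limma adjusted p = 0.000554 and 0.00165) and COX6B1 by -0.32 (limma adjusted p = 0.0149). COX6C, also of complex IV, differed by -0.32 (limma adjusted p = 0.0332) and NDUFB2, of complex I, by -0.17 (limma adjusted p = 0.0414), although neither was called in its own ratio, with means of -0.16 and -0.04. NDUFB3 differed by -1.03 from miR-565 within slide 2 and by -1.18 from miR-629* within slide 3, and the first NDUFA1 probe by -0.65 and -0.69. NDUFB3 and both NDUFA1 probes stayed called without any 1 of the miR-574-3p arrays and with the slide as a random block. COX6B1 (limma adjusted p from 0.0746 to 0.127), COX6C (from 0.118 to 0.247) and NDUFB2 (from 0.152 to 0.311) lost the call whichever of these arrays was left out, and COX6B1 also with the slide as a random block (limma adjusted p = 0.0842).

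These falls in the ratio again lay in the knocked-down channel, here as higher signals. The probes shown were taken for their low ratios, of which the knocked-down signal is the denominator. The share of all tested probes with such gaps was not counted. NDUFB3 had knocked-down signals of 16330, 19600 and 20140 on the miR-574-3p arrays, all above the 7146 to 11930 of the other 12 arrays. In the overexpressing cells it had 8890, 10070 and 9328, within the 7164 to 10270 of the others. The first NDUFA1 probe had 27370, 31280 and 31510 in the knocked-down channel, above the 14600 to 26790 elsewhere. Its overexpressing signals of 19530, 22130 and 21220 lay within 15990 to 23670. For COX6B1 the knocked-down signals of 27920, 33340 and 32410 overlapped the 18870 to 34200 of the other arrays, whose highest value was replicate 1 of miR-565.

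**Figure D4:**
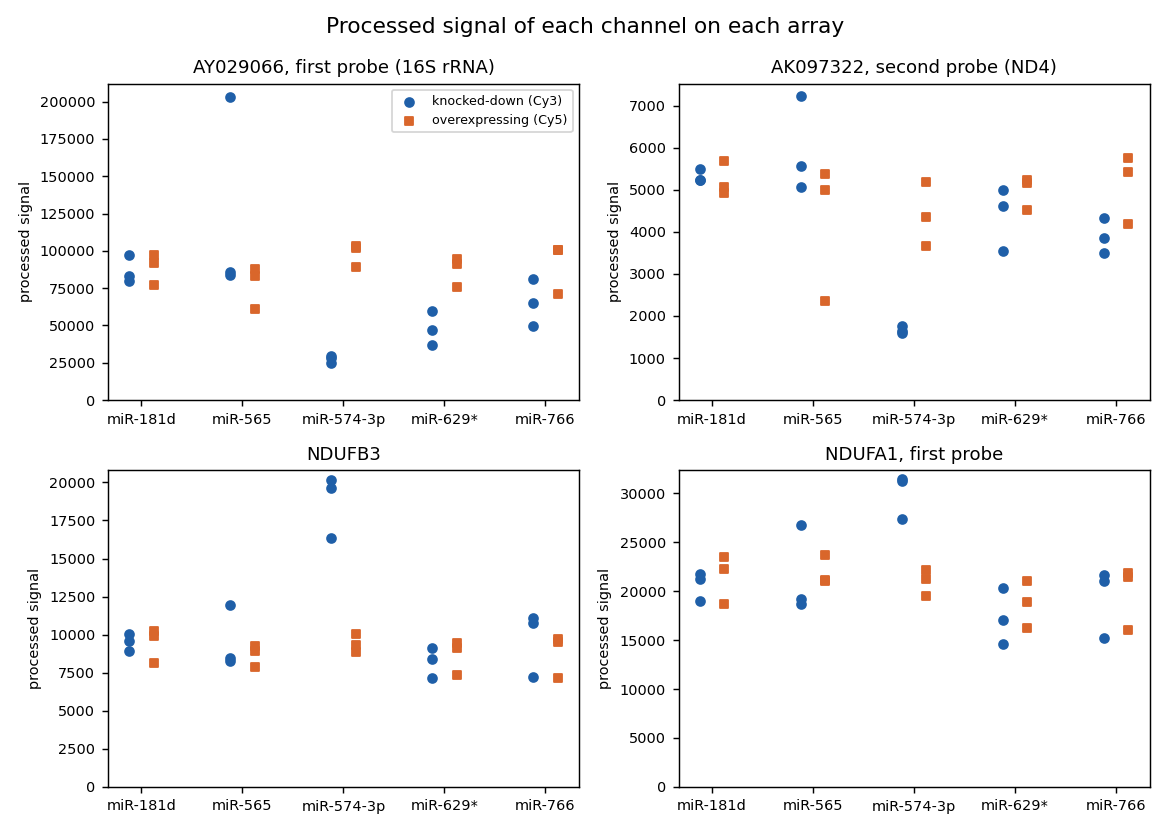
Processed signal (vertical axis, starting at 0) of 4 probes on the 15 arrays, by miRNA, in the knocked-down channel (blue circles) and the overexpressing channel (orange squares), each point being 1 array. On the miR-574-3p arrays the knocked-down signals are the lowest of all for AY029066 and AK097322 and the highest of all for NDUFB3 and NDUFA1, while the overexpressing signals lie among or next to those of the other miRNAs. The 4 probes were taken for their ratios on the miR-574-3p arrays.

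In the knocked-down channel of miR-574-3p, 12 of the 125 nuclear probes were higher than with the other antagomirs and 1 was lower, against 4.05% and 4.5% of all tested probes. With each array scaled to its 75th percentile, 8 were higher and 0 lower. All 12 were subunits, 6 probes in complex I, 2 in complex IV and 4 in complex V. NDUFB3 was higher by 1.02 (SE 0.05, limma adjusted p = 8.03e-10), and the NDUFA1 probes by 0.60 and 0.58 (limma adjusted p = 2.43e-08 and 1.88e-07). One of the NDUFA5 probes, an accessory subunit of the matrix arm of complex I, was higher by 0.43 (limma adjusted p = 6.34e-06). In complex IV, COX6C was higher by 0.37 (limma adjusted p = 9.33e-06) and COX6B1 by 0.31 (limma adjusted p = 9.83e-05). In complex V, ATP5O, which links the stalk to the catalytic head, was higher by 0.37 (limma adjusted p = 4.77e-06), ATP5E by 0.24 and 0.16 at its probes and ATP5G1 by 0.15, while NDUFB1 and NDUFB2 of complex I were higher by 0.15 and 0.13. The probe that was lower was NDUFB4, with -0.14 (limma adjusted p = 0.0236). The arrays it is compared with include those of miR-565, on which NDUFB4 was high in this channel.

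For miR-565, 21 nuclear probes were called higher and 5 lower, against 8.75% and 4.56% of all tested probes. NDUFB4, an accessory subunit of the membrane arm of complex I, stood out. It had -0.48, -0.55 and -0.63 (mean -0.55, SE 0.04, limma adjusted p = 9.91e-06), with mean ratios of -0.01 to 0.05 for the other miRNAs. Its difference from the other miRNAs was -0.57 (SE 0.04, limma adjusted p = 7.82e-05), and it was the only nuclear member among the 0.0925% of probes called lower in that comparison. The knocked-down signals were 35180, 22510 and 24040, all above the 12350 to 17620 elsewhere, whereas the overexpressing signals of replicates 2 and 3, 15340 and 15540, lay within the 12400 to 18760 of the other miRNAs and that of replicate 1 was 25290. In the knocked-down channel NDUFB4 was higher by 0.58 (limma adjusted p = 3.24e-07), where 1.31% of all probes were called higher. Without replicate 1, its difference was -0.61 (limma adjusted p = 2.15e-05).

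The other nuclear calls for miR-565 lay between -0.22 and 0.39. The highest were 1 probe of ATP5E (0.39), COX7B (0.39) and 1 probe of UQCR (0.35), and the lowest after NDUFB4 were ATP5B, the catalytic beta subunit of ATP synthase (-0.22), and COX8A (-0.21). Of the 21 probes higher, 10 were complex I subunits, 3 complex III, 3 complex IV and 4 complex V, and the remaining one was NDUFA12L, an assembly factor. Some were higher on replicate 1, as UQCR with 0.65 against 0.19 and 0.20 on the other arrays. The counts without it were 28 higher and 8 lower, against 8.71% and 7.17% of all probes.

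Most mitochondrial probes of miR-565 were far lower on replicate 1 than on the other arrays, while BC000845 was low on all 3. The median of the 18 probes was -1.45 on replicate 1 and 0.02 on both others. BC000845, in the 16S rRNA region, had -2.96, -1.52 and -1.66 (mean -2.05, SE 0.27, limma adjusted p = 0.00142). For miR-181d it had -1.95, -0.64 and -0.29, which did not pass the test (limma adjusted p = 0.0548), and for the remaining miRNAs its means were 0.16, -0.00 and 0.35. Its difference from the other miRNAs was -1.94 for miR-565 (limma adjusted p = 0.0235), and the call was lost without replicate 1 (-1.48, limma adjusted p = 0.0573), without replicate 3 (limma adjusted p = 0.0618) and with the slide as a random block (limma adjusted p = 0.0613). Its knocked-down signals were 221600, 109200 and 116600 for miR-565, above the 44140 to 84290 of the other miRNAs, and its overexpressing signals of 28390, 37960 and 36920 were under those of all others but replicate 1 of miR-181d, with 16750. CYTB at 1 probe was also called lower for miR-565 (mean -0.81, limma adjusted p = 0.0356), with -1.91 on replicate 1 and -0.30 and -0.23 on the others, and 1 ND3 probe was called higher (0.36, limma adjusted p = 0.027).

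For miR-766, 0 of the 125 nuclear probes were called higher and 5 lower, against 1.47% and 0.702% of all tested probes, and 27 had an unadjusted p under 0.05, as did 5162 of the 31352 probes tested. UQCR, a small subunit of complex III, fell most, with -0.49, -0.43 and -0.59 at 1 of its probes (mean -0.50, SE 0.04, limma adjusted p = 0.000151). The other UQCR probe had 0.02, -0.09 and -0.20 (mean -0.09, limma adjusted p = 0.673), so that the probes of this gene disagreed. The difference of the first from the other miRNAs was -0.37 (SE 0.04, limma adjusted p = 0.0334), the only call of that comparison in this direction on the array (0.00319%). It was not called without any 1 of the miR-766 arrays (limma adjusted p from 0.0915 to 0.351), and slide 4 held no other miRNA, so that slide and miRNA cannot be told apart. Its knocked-down signals of 23230, 30010 and 31810 overlapped the 18410 to 34490 of the others, and after normalization within the dye they were higher by 0.32 (limma adjusted p = 0.000651), where 1.91% of all probes were called higher. The other UQCR probe was higher by 0.20 in that channel (limma adjusted p = 0.0276). Among the remaining falls, with means from -0.20 to -0.15, were NDUFB8, COX8A and 1 probe of UQCRFS1, the Rieske iron-sulfur protein of complex III. No mitochondrial probe was called for miR-766, and 4 of the 18 had an unadjusted p under 0.05. On all 3 arrays 13 of the 15 forward probes were positive (median of means 0.30), as were 8093 of the 31352 probes tested. Without replicate 1 of miR-565, 11 mitochondrial probes were called higher and 2 lower, against 11.3% and 7.46% of all probes.

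For miR-629*, 14 nuclear probes were called higher and 8 lower, against 5.99% and 4.54% of all tested probes, and 0 of the 125 differed from the other miRNAs. ATP5F1, a stator subunit of ATP synthase, had 1.08, 0.21 and 1.26 at 1 of its probes (mean 0.85, limma adjusted p = 0.034). That probe was dim, with signals from 5.97 to 29.6 on the 15 arrays, and the brighter ATP5F1 probe, with 5368 to 10190, was not called (0.15, limma adjusted p = 0.47). SDHALP2, a copy of SDHA that is not a subunit, had 0.66, 0.93 and 0.67 (limma adjusted p = 0.0208). All other called ratios lay between -0.26 and 0.26, as for COX7B (0.26), NDUFS1, an iron-sulfur subunit of complex I (0.25 at 1 of 2 probes), and NDUFV1, its flavoprotein (-0.24). Of the mitochondrial probes, the first AY029066 probe and 1 ND3 probe (0.45, limma adjusted p = 0.0114) were higher and 0 were lower. For miR-181d, 1 nuclear probe was higher, COX7B with 0.22, and 4 were lower, against 3.41% and 2.85% of all tested probes, among them COX8A, NDUFA13 and ATP5B, with means from -0.22 to -0.16. None of the 18 mitochondrial probes was called for miR-181d, and 3 had an unadjusted p under 0.05, as did 6933 of the 31352 probes tested.

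Some members had the same sign with every miRNA. COX8A, a small subunit of complex IV, was called lower in all 5, with means from -0.22 to -0.19, and its differences from the other miRNAs were -0.02 to 0.02. COX7B, of the same complex, was called higher in 4 at 1 probe and had 0.18 for miR-766 (limma adjusted p = 0.128), while its other probe ran from -0.26 to 0.20 and was called in none. ATP5B and NDUFB8 were each called lower in 3. Dye and treatment cannot be told apart in a value common to all arrays, since the overexpressing sample was labeled with Cy5 on each.

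**Figure D5:**
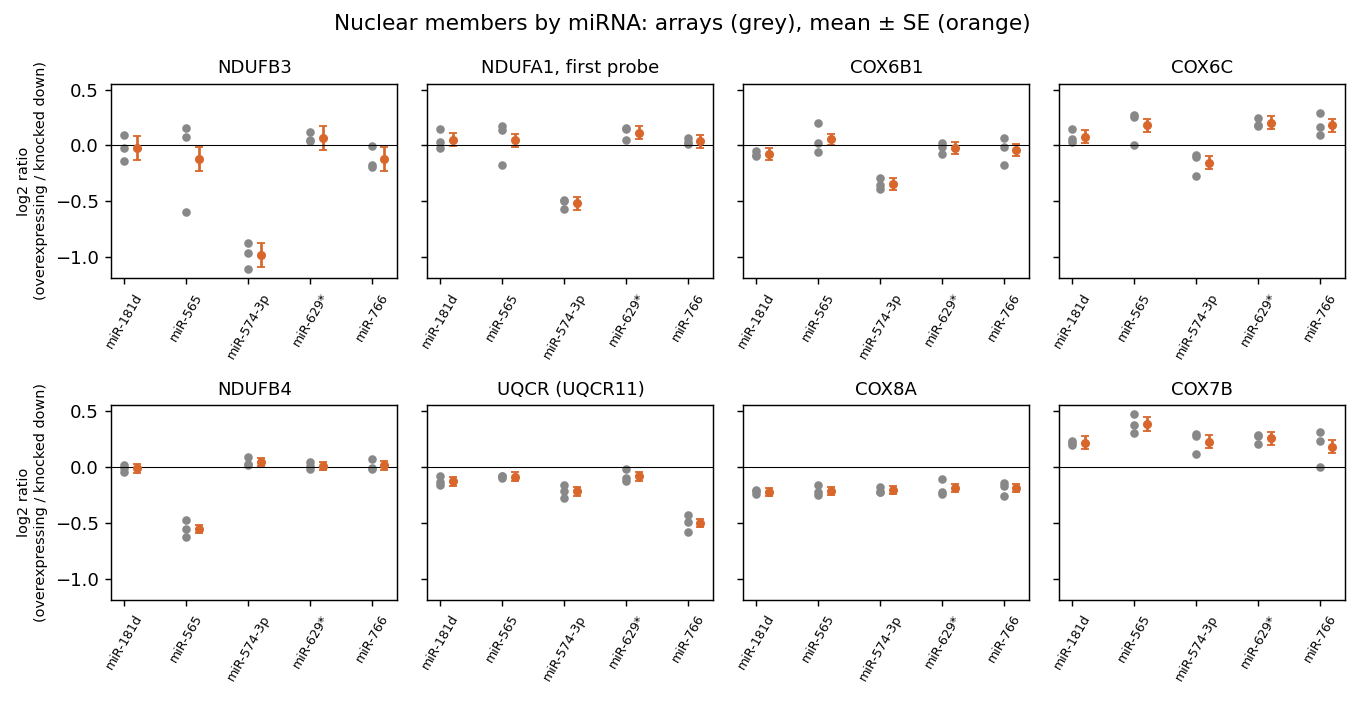
Log2 ratio (overexpressing over knocked-down, vertical axis) of 8 nuclear members by miRNA, with 1 grey point for each array and the mean ± SE of the limma fit in orange. NDUFB3, NDUFA1, COX6B1 and COX6C are lowest for miR-574-3p, NDUFB4 for miR-565 and UQCR for miR-766, whereas the means of COX8A lie between -0.22 and -0.19 and those of the COX7B probe shown above 0 for all 5 miRNAs.

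Seen by complex, the widest range over the miRNAs in complex I was 1.69 for 1 probe of NDUFS4, whose signals ran from 2.48 to 15.5, and in complex IV 0.73 for COX4I2, whose replicates for miR-565 ran from -0.26 to 2.89. Neither was called for any miRNA. In complex II, which has no mitochondrial subunit, 0 of the 8 subunit probes were called with any of the 5 miRNAs, a list too short to be read against the 0.702% to 8.75% of all probes called in 1 direction. SDHA, its flavoprotein, had means from -0.19 to -0.01 over its 2 probes and the 5 miRNAs, and SDHB, its iron-sulfur protein, from -0.01 to 0.07. The widest range in complex II was 0.26, for SDHC. In complex III, UQCRC1, a core protein, had means from -0.13 to 0.05, none of which passed. In complex V, ATP5A1, the alpha subunit, had means from -0.13 to 0.09, with limma adjusted p of 0.107 or more. COX5A of complex IV was called higher for miR-565 (0.27) and miR-629* (0.17) at 1 probe, while its other probe had 0.08 and 0.04. COX4I1 was called at 1 of 3 probes for miR-574-3p, where the others had 0.03 and -0.11.

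Other mitochondrial genes were counted in lists chosen with earlier results of these data known. Of all tested probes, 2.76% were called higher and 2.56% lower for miR-574-3p, 8.75% and 4.56% for miR-565, and 5.99% and 4.54% for miR-629*. The shares were 3.41% and 2.85% for miR-181d, and 1.47% and 0.702% for miR-766. The counts that follow stand beside these shares. Of the 108 probes of mitochondrial ribosomal proteins, which translate the mitochondrial mRNAs, 0 were higher and 5 lower for miR-574-3p, with a median of -0.01. These were both probes of MRPS21 (-0.58 each), MRPL37 (-0.30), MRPS12 (-0.27) and MRPS16 (-0.25). MRPL37 and MRPS16 also differed from the other miRNAs, by -0.43 (limma adjusted p = 0.0162) and -0.26 (limma adjusted p = 0.00854), whereas MRPS12 was called lower with all 5. For miR-565, where 8.75% of all probes were higher and 4.56% lower, 8 of the 108 were higher and 2 lower, MRPL2 (0.51) and MRPL43 (0.42) having the highest ratios.

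Among the 37 tested probes for the maintenance and transcription of mitochondrial DNA, such as TFAM, POLRMT and POLG, 0 were called for miR-574-3p, with a median of 0.04. For miR-629* 3 were higher, against 5.99% of all probes, DGUOK (0.34) and SSBP1 (0.23) most, and for miR-565 1 was higher, DGUOK (0.35), and 1 lower, TRMT5 (-0.12). Of the 22 probes of nuclear regulators, 0 were called for miR-574-3p. PPARGC1A, the coactivator of mitochondrial biogenesis, was lower for miR-565 (-0.78, limma adjusted p = 0.0476), and GABPB2, a GABP subunit, was higher for miR-181d (0.30) and miR-629* (0.43 and 0.27 at its probes), together with CREB1 (0.44). None of the 37 and 22 probes of these lists was called as differing from the other miRNAs.

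Of the 28 probes of the citric acid cycle and pyruvate dehydrogenase, 0 were higher and 4 lower for miR-565, against 8.75% and 4.56% of all probes. For miR-629* 2 were higher and 2 lower, for miR-181d 1 and 2, and for miR-574-3p and miR-766 1 and 0 each. PDHA1 was higher in 4 miRNAs (0.34 for miR-181d, 0.28 for miR-574-3p, 0.28 for miR-629* and 0.26 for miR-766). SUCLG2 was lower for miR-565 (-0.45) and IDH3B for miR-629* (-0.46 at the larger of its probes). DLAT was lower for miR-181d (-0.66). Of the 45 probes of assembly factors, 1 was higher and 1 lower for miR-574-3p, COX18 (0.50) and C3orf60 (-0.19). For miR-565, 4 of the 45 were higher and 1 lower, with COX18 at 0.66 and 0.82. Of the 14 probes of electron carriers, CYC1, the cytochrome c1 of complex III, and ETFB were lower for miR-574-3p (-0.18 and -0.17) and 0 were higher.

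Some promoters of the nuclear subunits hold strings that the choice of members did not use. In RefSeq (GRCh38.p14), 64 subunit genes had a promoter, of which the 250 bases before the start were searched on both strands. The letters GCATGCGC, the core of the NRF1 site, were in 12 of them (18.8%) and in 2.63% of the 35116 promoters of the table. The ETS letters CCGGAAGT were in 9 (14.1%) against 3.42%, and the YY1 letters AAGATGGC in 1 (1.56%) against 1.36%. The upstream sequences of the members with the most distinct values for miR-565 and miR-766 are printed with matches in capitals, an NRF1 match on both strands in NDUFB4 and an ETS match in UQCR11. A match is a description and not a site shown to be used.
NDUFB4 (chr3:120596086-120596335, forward): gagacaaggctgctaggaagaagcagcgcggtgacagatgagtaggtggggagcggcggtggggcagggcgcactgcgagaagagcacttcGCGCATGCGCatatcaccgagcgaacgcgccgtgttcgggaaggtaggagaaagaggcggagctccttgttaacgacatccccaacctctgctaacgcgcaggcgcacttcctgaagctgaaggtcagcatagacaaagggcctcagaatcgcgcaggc
UQCR11 (chr19:1605463-1605712, reverse): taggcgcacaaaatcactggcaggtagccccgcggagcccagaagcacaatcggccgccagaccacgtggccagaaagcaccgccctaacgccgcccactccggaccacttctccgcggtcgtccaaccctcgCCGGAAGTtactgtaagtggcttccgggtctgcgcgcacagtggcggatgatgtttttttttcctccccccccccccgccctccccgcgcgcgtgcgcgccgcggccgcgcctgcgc
The promoters of NDUFB3, NDUFA1 and COX6B1, which had the lowest called nuclear ratios for miR-574-3p, hold none of the 3 strings in this window.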

How the data were processed

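The data are 15 dual-color arrays of A549 cells, grouped by the miRNA and replicate number in the labels. Scans had been read by the authors with Agilent Feature Extraction 9.5.3.1 (design on NCBI36), and the deposited processed signal is an intensity per channel after background subtraction, detrending and dye normalization. The deposited files also hold a log10 ratio and, as a score, its error, and the authors' series table equals that log10 ratio. The p-values in the files were not used.

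Control spots (1639) and 2296 outlier-flagged spots were removed and repeated spots averaged, which left 41000 probes. log2 ratios of the deposited intensity were fitted with limma 3.58.1 in R 4.3.3 (lmFit, eBayes with an intensity trend), with 1 coefficient per miRNA over all 15 arrays. Probes entered if 1 of the channels was well above background on 3 or more arrays (31352 probes), over which p-values were adjusted by Benjamini-Hochberg, with calls at 0.05. Channels were tested dye by dye after quantile normalization, without a slide block. Since the processed signals had been normalized between the dyes on each array, the channels are not independent. On each array 68.1% to 75.5% of probes in the overexpressing and 68.8% to 73.0% in the knocked-down channel exceeded background, and precision is limited by the number of arrays. The procedure was tested on simulated data, where false calls were somewhat more frequent than the nominal share.

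The members and lists were chosen with earlier results of these data known, among them a rise of AY029066 on the miR-574-3p arrays. Named are the mitochondrial probes, the 3 highest and 3 lowest nuclear ratios called with the same sign on all arrays of a miRNA, the probe with the widest range per complex, 10 core genes and up to 2 called genes per other list and miRNA. NDUFA5, ATP5O and the others named for the channels, and MRPS genes beyond 2, were chosen after their values were seen. Of the 88 nuclear gene names, 87 matched a symbol of RefSeq (GRCh38.p14), 22 under a newer name. Replicate numbers did not pair the arrays (correlations of deviations from -0.395 to 0.51 over 30 same-numbered pairs, 13 over 0.1). The alternatives were an error-weighted mean, normexp (offset 50) with loess, the series table, centering on the median, only 3 arrays, no intensity trend, replicate and slide blocks, other filters on dim probes, flagged spots kept, arrays left out, subunits only and the brightest probe of each gene. Results for 1 nuclear gene and 1 mitochondrial probe are not reported here.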

Additional observations from a re-analysis of the deposited data

Results flagged for a closer look

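For 13 of the 143 tested members the ratio of 1 miRNA differed from the mean of the other 4 in the limma test of that difference. Of all tested probes, 0.475% were called higher and 0.705% lower for miR-574-3p in this test. For miR-565 0.0925% were called lower and for miR-766 0.00319%. For miR-574-3p, the difference was 1.62 for the first AY029066 probe, 1.45 for THC2595309, 1.39 for the second AK097322 probe and 0.86 for ND2. The rise of AY029066 on the miR-574-3p arrays was known when the members were chosen. In the other direction it was -0.93 for NDUFB3, -0.58 and -0.51 for the NDUFA1 probes, -0.32 for COX6B1, -0.32 for COX6C and -0.17 for NDUFB2. Without any 1 of the miR-574-3p arrays, the first AY029066 probe, the second AK097322 probe, ND2, COX6B1, COX6C and NDUFB2 were no longer called, and THC2595309 was called only without replicate 2. For miR-565, NDUFB4 differed by -0.57 and BC000845 by -1.94. BC000845 lost its call without replicate 1, without replicate 3 and with the slide as a random block. For miR-766, UQCR differed by -0.37. UQCR lost its call whichever miR-766 array was left out, and with the slide as a random block. Groups of 3 arrays were not searched for outlying arrays. The part of slide, dye and replicate 1 of miR-565 in these differences was not tested beyond the within-slide and left-out values given with the results.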

How the results depend on the processing

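The gap between mitochondrial and nuclear medians kept its sign under every alternative run. It moved by more than the SD of the 3 arrays only for miR-181d, to -0.019 with normexp and loess. For miR-565 this SD was 0.85 because of replicate 1, so that a large move could not exceed it. Without replicate 1 the gap for miR-565 went from -0.52 to -0.04. Counts of calls moved more. Nuclear calls for miR-181d (5) were 11 with normexp and loess, 8 with median centering or only the 3 arrays, 1 with the error-weighted mean, without the intensity trend or with the replicate block, 12 with no filter and 0 to 32 with 1 array left out. Those for miR-565 (26) were 10 with the error-weighted mean, 1 with the slide as a random block, 0 with only the 3 arrays and 25 to 37 with 1 array left out. Those for miR-574-3p (14) were 5 (error-weighted), 8 (no trend), 4 (slide block), 39 (only the 3 arrays) and 4 to 35 (1 array left out). Those for miR-629* (22) were 5, 13, 0, 48 and 0 to 59 in the same order. Those for miR-766 (5) were 8 with median centering, 3 error-weighted, 1 with no trend, 0 with the slide block and 1 to 34. Mitochondrial calls for miR-181d (0) were 2 error-weighted, 1 with the replicate block, no filter or the strict filter, and 0 to 2. Those for miR-565 (3) were 11 error-weighted, 0 with the slide block or only the 3 arrays, 1 with the brightest probe and 2 to 10. Those for miR-574-3p (6) were 12, 1 and 15 (error-weighted, slide block, only the 3 arrays) and 4 to 14. Those for miR-629* (2) were 6, 0 and 8, 0 with the brightest probe, and 0 to 8. Those for miR-766 (0) were 7 error-weighted, 10 with only the 3 arrays and 0 to 13. For the 4 miRNAs other than miR-565, the highest value of each range came without replicate 1 of miR-565. Members differing from the other miRNAs were, for miR-565 (2), 12 error-weighted, 1 with no trend and 1 to 4; for miR-574-3p (10), 17 error-weighted, 8 with the replicate block and 3 to 25; and for miR-766 (1), 0 with median centering, no trend, the replicate block, the slide block or no filter, and 0 to 2. In the knocked-down channel of miR-574-3p, the higher nuclear probes went from 12 to 8 and the lower one was lost (0) with the 75th percentile. Without replicate 1 of miR-565, 3 mitochondrial probes were higher in that channel, all of the reverse strand, against 3.59% of all probes. The slide block had a correlation of 0.73 within slides. Only values of named members that were called in the fit reported above were followed under the alternatives. Of these alternative values none changed sign, 716 kept the call and 291 lost it. The cause of these changes was not tested. The number of arrays and the signal over background of dim probes limit the precision.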
